A study of Mus musculus with 2 samples.

Results

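The Mir17-92 cluster is a group of 6 miRNA genes on the plus strand of mouse chromosome 14: Mir17, Mir18, Mir19a, Mir20a, Mir19b-1 and Mir92-1. The members were taken by gene identifier from the deposited count tables, and 6 of the 1973 miRNA genes in those tables belong to the cluster. The tables come from microRNA-seq of limb tissue that was collected from B6NCrl mouse embryos 15.5 days old. There was 1 group with 2 biological replicates and no treatment, mutant or second tissue. Replicate 2 was made from a pool of 62 embryos and replicate 1 from a pool of 78 embryos, with both sexes in each pool, so the values describe pooled whole limbs and not single animals or cell types. Fewer cells of a type and less RNA per cell cannot be told apart in such samples.

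MicroRNAs, or miRNAs, are released from hairpins in longer transcripts. They guide Argonaute proteins to messenger RNAs, mainly through the bases next to their 5′ end, the seed. The hairpins of Mir17-92 are cut from a single primary transcript, Mir17hg, which is a target of MYC and MYCN and is known from proliferating progenitor cells. In humans, loss of a copy of the cluster causes a form of Feingold syndrome with short digits, and mice that lack the cluster have skeletal defects that include the limbs. The Mir17, Mir18, Mir19 and Mir92 seeds differ, so the single transcript yields miRNAs of 4 seed families. Among the textbook targets are Cdkn1a and Bcl2l11, which restrain the cell cycle and promote apoptosis, for Mir17 and Mir20a, and Itga5 for Mir92-1.

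The mature arms for which the members are best known are shown first, because their seeds define the families and because 2 of them are also encoded by other genes. All 6 members, and all 15 genes including the paralogous clusters, were found in the RefSeq table (GRCm38.p6), from which the sequences are taken. Capitals mark the seed, bases 2 to 8 counted from the 5′ end.
miR-17-5p: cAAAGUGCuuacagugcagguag
miR-20a-5p: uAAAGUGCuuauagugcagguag
miR-18a-5p: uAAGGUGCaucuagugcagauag
miR-19a-3p: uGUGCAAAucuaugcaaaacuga
miR-19b-3p: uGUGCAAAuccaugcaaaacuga
miR-92a-3p: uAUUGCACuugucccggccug

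miR-17-5p and miR-20a-5p have the same seed and differ at 2 of 23 bases, C1U and C12U, counted from 1 at the 5′ end with the base of miR-17-5p first. miR-18a-5p differs from miR-17-5p at 6 of 23 bases, of which A4G lies in the seed. miR-19a-3p and miR-19b-3p differ at a single base, U11C, outside the seed. miR-92a-3p has the highest GC content of these arms, 57.1%, and miR-19a-3p the lowest, 34.8%.

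The 6 hairpins lay within 836 bases of mm10, chr14:115043671-115044506, all in exon 2 of Mir17hg (ENSMUSG00000089726.2), a long intergenic non-coding RNA gene with 2 exons at chr14:115042879-115046727. In transcript order they were Mir17 (ENSMUSG00000065508.1, chr14:115043671-115043754), Mir18 (ENSMUSG00000065403.1, chr14:115043851-115043946) and Mir19a (ENSMUSG00000065416.1, chr14:115044000-115044081). They were followed by Mir20a (ENSMUSG00000065442.1, chr14:115044157-115044263), Mir19b-1 (ENSMUSG00000076256.1, chr14:115044305-115044391) and Mir92-1 (ENSMUSG00000076062.1, chr14:115044427-115044506). The annotated hairpins were 80 to 107 bases long and 35 to 96 bases apart. The identifiers were counted by the authors with annotation M4, and all 6 carried the same version in the GENCODE M21 annotation used here for names and positions.

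Replicate 2 held 5151214 and replicate 1 held 4263630 sense counts over all miRNA genes, from 10851823 reads in replicate 2 and 9187400 reads in replicate 1. Levels are given as CPM, the sense counts of a gene scaled to a library total of 1000000 sense counts, without division by hairpin length. The annotated arms of the members are all 21 to 23 bases long. Where a gene had a count of 0, its level could lie as high as 0.582 CPM in replicate 2 and 0.704 CPM in replicate 1, the worth of 3 counts. Reads that aligned to several places made up 29.7% of replicate 2 and 29.4% of replicate 1 and entered no gene. A gene was called detected when each replicate gave it 10 or more sense counts, which held for 340 genes, all 6 members among them. Marker miRNAs of limb tissues were present: Mir140 of cartilage stood at 43163 ± 1100.3 CPM, Mir203 of epidermis at 72531 ± 6726 CPM and Mir196b of the Hox clusters at 40763 ± 6885 CPM (SD, n = 2). The other listed limb markers had lower means. Mir126a of endothelium stood at 22336 CPM, Mir205 of epidermis at 16206 CPM and Mir455 of cartilage at 3424 CPM. Of the Hox clusters, Mir10b stood at 8209 CPM, Mir10a at 3339 CPM and Mir196a-1 at 8.94 CPM. Of muscle, Mir206 stood at 7919 ± 4429 CPM (SD, n = 2) and Mir133b at 63.1 CPM. Of 6 neuronal markers 2 were found by symbol, and of these Mir9-3 was at 1.73 ± 0.532 CPM and Mir9-2 at 0 counts. Whether the arms of Mir196a-1 or of the Mir9 genes have copies in other genes was not tested, and reads from such copies may have entered no gene. The low counts of Mir196a-1, Mir9-3 and Mir9-2 therefore do not measure how much of these miRNAs, or how much neuronal miRNA, was present.

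In the limb, 4 members were abundant and the 2 Mir19 genes had few counts. Together the members made up 2.38% of all sense counts in replicate 2 (95% limits by Wilson's method 2.37 to 2.39) and 2.13% in replicate 1 (2.11 to 2.14), a mean of 2.25% ± 0.179 (SD, n = 2). Mir17 supplied most of this, with 59.6% ± 0.0983 of the cluster's counts. Mir20a supplied 18.0% ± 0.273, Mir18 12.1% ± 0.0265 and Mir92-1 10.2% ± 0.366, while Mir19a and Mir19b-1 supplied 0.149% ± 0.0136 and 0.0382% ± 0.00718 (SD, n = 2 for each). No member had an antisense count in either library.

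Mir17, the first hairpin of the transcript and a repressor of cell cycle inhibitors, was counted 73116 times in replicate 2 (14194 CPM) and 53956 times in replicate 1 (12655 CPM). Mir20a, with the same seed, was counted 22297 times in replicate 2 (4328 CPM) and 16142 times in replicate 1 (3786 CPM). Mir17 therefore lay above Mir20a in both libraries, by 3.28-fold in replicate 2 and 3.34-fold in replicate 1. Their summed counts made the Mir17 seed the most counted seed of the cluster.

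Mir18, whose mature miRNA is miR-18a, was counted 14766 times in replicate 2 (2867 CPM) and 10956 times in replicate 1 (2570 CPM). Mir92-1, a source of miR-92a, which is known from endothelium, was counted 12186 times in replicate 2 (2366 CPM) and 9483 times in replicate 1 (2224 CPM). These neighbours in the order were the closest pair, with Mir18 1.21-fold above Mir92-1 in replicate 2 (exact 95% interval 1.18 to 1.24) and 1.16-fold above it in replicate 1 (1.12 to 1.19). The lower Mir18 value still lay above the higher Mir92-1 value. The intervals cover counting error only.

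Mir19a and Mir19b-1, which share the Mir19 seed, stood far below. Mir19a was counted 194 times in replicate 2, at 37.7 CPM (exact Poisson 95% interval 32.5 to 43.3), and 126 times in replicate 1, at 29.6 CPM (24.6 to 35.2). Mir19b-1 was counted 53 times in replicate 2, at 10.3 CPM (7.71 to 13.5), and 30 times in replicate 1, at 7.04 CPM (4.75 to 10.04). Both Mir19 genes were above the limit of a count of 0 in both libraries, and Mir19a was 3.93 ± 0.382 times as high as Mir19b-1 (SD, n = 2).

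The mean levels thus ran from Mir17 (13424 ± 1088 CPM) through Mir20a (4057 ± 384 CPM), Mir18 (2718 ± 210 CPM) and Mir92-1 (2295 ± 100.1 CPM) to Mir19a (33.6 ± 5.73 CPM) and Mir19b-1 (8.66 ± 2.3 CPM; SD, n = 2 for each). The ranges of the replicates did not overlap for any pair of neighbours in this order. The widest step was between Mir92-1 and Mir19a, 69.0 ± 8.8-fold (SD, n = 2). Mir17 exceeded Mir19a by 403 ± 36.3-fold and Mir19b-1 by 1589 ± 296-fold (SD, n = 2). Level did not follow position on the transcript: the low Mir19a lay between Mir18 and Mir20a, and the low Mir19b-1 between Mir20a and Mir92-1.

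**Figure D1:**
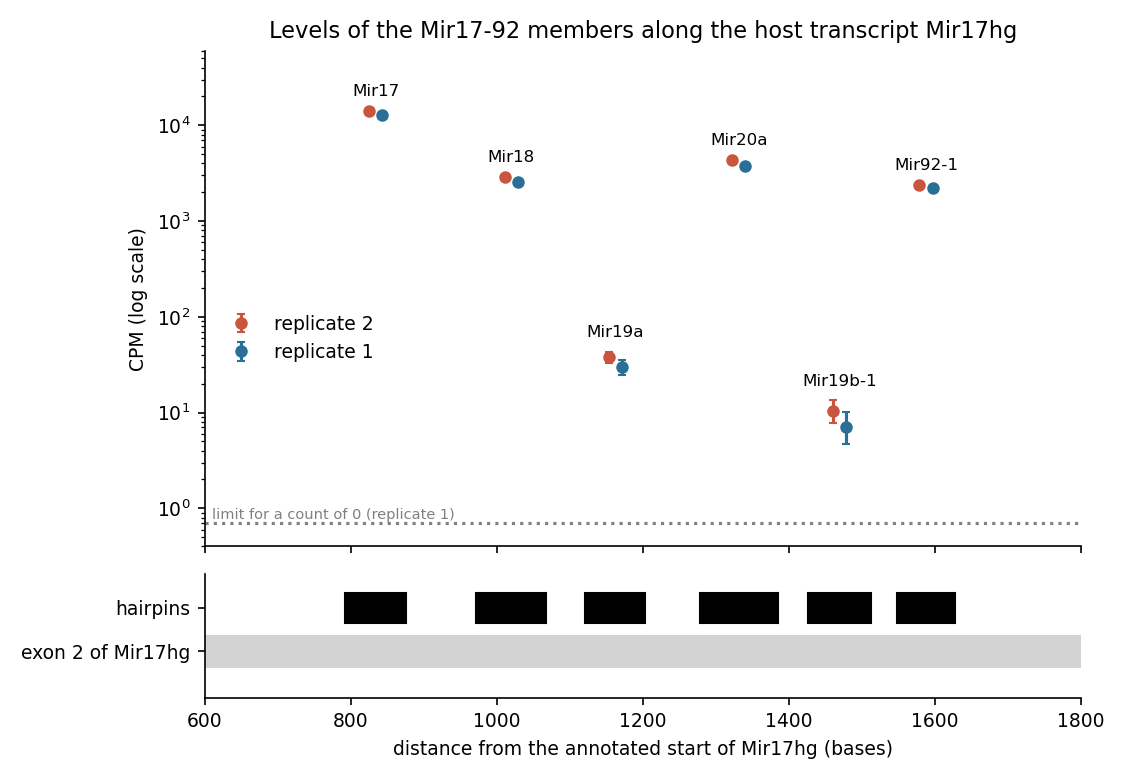
Levels of the 6 members in CPM (log scale) against the distance of each hairpin from the annotated start of Mir17hg in bases, with replicate 2 and replicate 1 as points, exact Poisson 95% intervals as bars, and hairpins and exon 2 drawn to scale below. Mir17, Mir18, Mir20a and Mir92-1 lie at 2224 CPM or higher in both replicates, and Mir19a and Mir19b-1 lie at 37.7 CPM or lower.

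The counts of Mir19b-1 and Mir92-1 leave out reads that aligned to several places. Of the 11 annotated arms of the cluster, 2 have an exact copy in another annotated miRNA hairpin, miR-19b-3p in Mir19b-2 and miR-92a-3p in Mir92-2, both on chromosome X. The hairpin pairs are shown because the shared stretch, in capitals, is the part of the sequence in which a read cannot be assigned to a single gene. Positions are in mm10, with Mir19b-2 and Mir92-2 on the minus strand and the cluster's members on the plus strand.
Mir19b-1, chr14:115044305-115044391: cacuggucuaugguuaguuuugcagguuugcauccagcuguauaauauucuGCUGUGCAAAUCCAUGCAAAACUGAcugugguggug
Mir19b-2, chrX:52741983-52742066: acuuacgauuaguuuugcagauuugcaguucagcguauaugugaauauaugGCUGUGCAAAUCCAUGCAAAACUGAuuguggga
Mir92-1, chr14:115044427-115044506: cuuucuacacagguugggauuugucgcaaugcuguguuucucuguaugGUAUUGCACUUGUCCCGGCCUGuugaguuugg
Mir92-2, chrX:52741838-52741928: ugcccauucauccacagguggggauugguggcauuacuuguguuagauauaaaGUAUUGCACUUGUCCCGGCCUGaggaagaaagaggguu

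The Mir19b pair shares 25 bases and the Mir92 pair 22 bases, and in both pairs the stretch holds the whole 3′ arm. Only reads that reach past the capitals, or that come from the other arm, have letters of a single hairpin. The tables give neither read lengths nor arms, so which reads made up the counts of Mir92-1 and Mir19b-1 was not tested. The levels of both genes are therefore levels of assignable reads, and the level of miR-92a or miR-19b as a molecule is not given by them.

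Mir19a differs in this respect. No other annotated miRNA hairpin holds miR-19a-3p, the longest run it has in common with one being 12 bases, in Mir19b-1. In the GENCODE M21 transcripts its exact sequence is found in Mir19a and the host Mir17hg alone. Copies outside annotated transcripts were not searched, and how the alignment treated mismatches such as the U11C difference from miR-19b-3p is not given in the sources used here. The low count of Mir19a thus stands beside an arm with no annotated exact copy, as do the high counts of Mir17, Mir18 and Mir20a, whose longest arm runs in common with other hairpins were 13 bases (Mir106a), 17 bases (Mir18b) and 13 bases (Mir20b). Whether the miRNA sequences were captured equally in the libraries was not tested.

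Among all detected genes, Mir17 ranked 19th by mean CPM, Mir20a 50th, Mir18 61st and Mir92-1 67th, against 240th for Mir19a and 285th for Mir19b-1. Mir17 stood between Mir411 (14652 ± 2413 CPM) and Mirlet7d (13099.5 ± 899.7 CPM; SD, n = 2). Mir20a stood between Mir30d (4120 ± 235 CPM) and Mir200c (4008 ± 162 CPM), and Mir18 between Mir15a (2745 ± 442 CPM) and Mir130b (2653 ± 323 CPM). Mir92-1 lay between Mir298 (2454 ± 442 CPM) and Mir324 (2246 ± 75.8 CPM). Below, Mir19a lay between Mir877 (35.3 ± 2.81 CPM) and Mir20b (31.4 ± 4.53 CPM), and Mir19b-1 between Gm26117 (8.75 ± 2.22 CPM) and Mir1188 (8.58 ± 4.45 CPM; SD, n = 2 throughout). The replicate ranges of each member overlapped those of both its neighbours, so these places are not resolved.

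Genes that neighbour each other on the same strand by at most 10 kb formed 40 clusters with at least 2 detected genes. Mir17-92 was 7th of the 40 by mean share of the sense counts. Its highest member exceeded its lowest by 1550-fold as a ratio of mean CPM, which was the 2nd widest range of the 40 after the cluster led by Mir322 (1854-fold), against a median of 14.9-fold. This range rests on Mir19b-1, whose main arm is shared. Without Mir19b-1 and Mir92-1 the same ratio was 399-fold, still above that median. Genes with a shared arm were not looked for in most of the other clusters, and none was left out of them. The 399-fold ratio and the median are therefore not like for like, and the 2nd place carries the same limit. Most of the 40 clusters had only 2 detected genes, however, and a range can only widen as genes are added. Among the other clusters with at least 5 detected genes, it was 1854-fold for Mir322 (7 detected), 1253-fold for Mir411 (29) and 453-fold for Mir467d (9). For the clusters led by Mir127 (10 detected) and Mir532 (5) it was 112-fold and 10.5-fold, and for Mir106a-363 (5) 9.11-fold.

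The mouse genome has 2 paralogous clusters that arose from the same ancestral cluster and carry related seeds. Mir106b, Mir93 and Mir25 lie on the minus strand of chromosome 5 within the gene Mcm7, which encodes a subunit of the replicative helicase. Mir106a, Mir18b, Mir20b, Mir19b-2, Mir92-2 and Mir363 lie on the minus strand of chromosome X. The Mir17-92 cluster held 2.25% ± 0.179 of the sense counts, against 0.998% ± 0.111 for the Mir106b-25 cluster and 0.0201% ± 0.00354 for the Mir106a-363 cluster (SD, n = 2). It was 2.26 ± 0.0724-fold above the Mir106b-25 cluster and 113 ± 11.1-fold above the Mir106a-363 cluster.

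Member by member, Mir17 was 3.38 ± 0.126-fold above Mir106b and 254 ± 9.65-fold above Mir106a (SD, n = 2). miR-106a-5p differs from miR-17-5p by a single base, U10A. Mir20a was the exception in direction, at 0.738 ± 0.0110 times the level of Mir93, while it was 130 ± 6.54-fold above Mir20b. Mir18 was 410 ± 94.0-fold above Mir18b, which had 43 counts in replicate 2 and 23 counts in replicate 1. Mir92-1 was 4.59 ± 0.154-fold above Mir25, 37.4 ± 6.51-fold above Mir92-2 and 53.5 ± 6.14-fold above Mir363. Mir19b-1 was 2.04-fold above Mir19b-2 in replicate 2 (exact 95% interval 1.25 to 3.40) and 3.33-fold above it in replicate 1 (1.54 to 7.98). Mir19b-2 had 26 counts in replicate 2 and 9 counts in replicate 1. The folds over Mir92-2 and Mir19b-2 compare assignable reads only, since the genes of each of these pairs share their whole 3′ arm.

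In all, 19 miRNA genes of the tables carry an arm with 1 of the cluster's 4 seeds. The relatives outside the cluster include Mir32 and Mir92b with the Mir92 seed, and the Mir17 seed is also found in the arms shown here for comparison with miR-17-5p.
miR-106b-5p: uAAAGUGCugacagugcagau
miR-93-5p: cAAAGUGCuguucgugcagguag
miR-106a-5p: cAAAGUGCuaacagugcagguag
miR-20b-5p: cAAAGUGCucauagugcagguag

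For the Mir17 seed, Mir17 and Mir20a supplied 64.2% of the family's counts in replicate 2 (Wilson limits 64.0 to 64.4) and 65.1% of them in replicate 1 (64.9 to 65.4), with Mir93 and Mir106b most of the rest. For the Mir18 seed, Mir18 supplied 99.7% in replicate 2 (99.6 to 99.8) and 99.8% in replicate 1 (99.7 to 99.9). The Mir92 seed was counted mainly at Mir92-1, with 72.7% in replicate 2 (72.0 to 73.4) and 73.5% in replicate 1 (72.7 to 74.2), followed by Mir25. The Mir19 seed came to 273 counts in replicate 2 and 165 counts in replicate 1 over its 3 genes, of which Mir19a and Mir19b-1 together held 90.5% in replicate 2 (86.4 to 93.4) and 94.5% in replicate 1 (89.96 to 97.1). The counts are per gene and include reads of the opposite arm, so these are shares of genes that carry a seed. Reads that aligned to several places are in none of them.

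**Figure D2:**
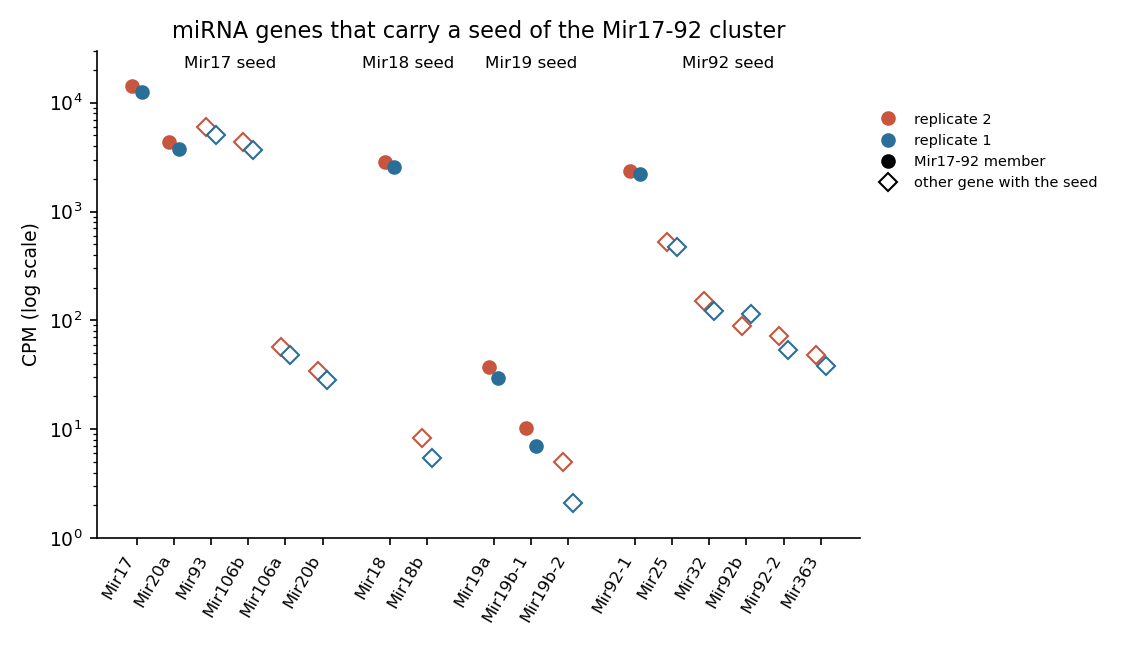
Levels in CPM (log scale) of the miRNA genes that carry a seed of the cluster and had counts, grouped by seed, with replicate 2 left of replicate 1, filled circles for Mir17-92 members and open diamonds for other genes. Mir93 and Mir106b lie near Mir20a, and the Mir106a-363 genes lie at 72.2 CPM or lower.

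**Figure D3:**
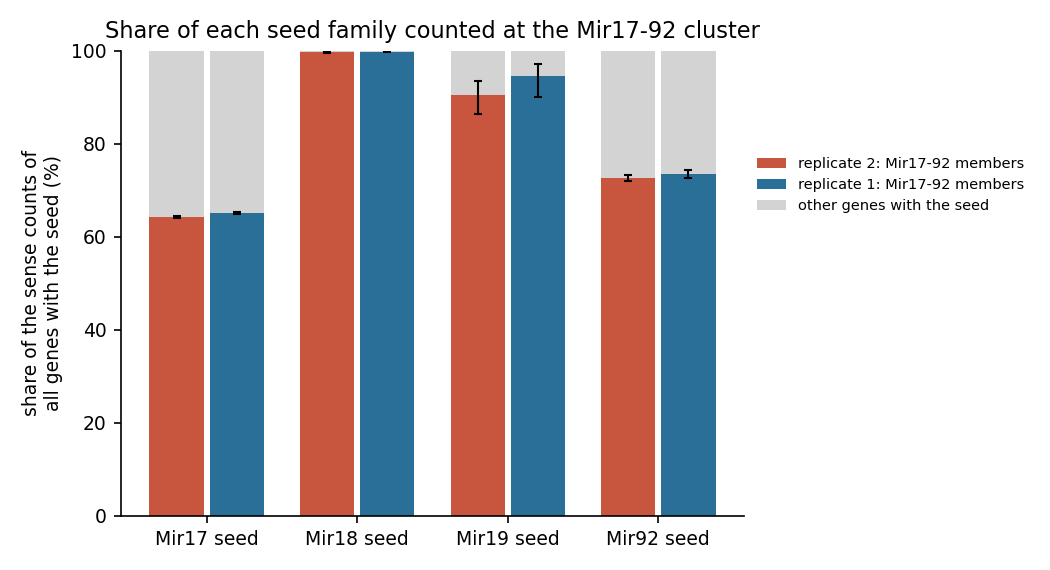
Share in percent of the sense counts of all genes with each seed that was counted at the Mir17-92 members, with replicate 2 left of replicate 1, grey for the other genes with the seed and bars for Wilson 95% intervals. The share is lowest for the Mir17 seed, at 64.2% in replicate 2 and 65.1% in replicate 1, and above 99% for the Mir18 seed.

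The cluster as a whole differed by a small factor between the 2 pools of limbs. All 6 members had a log2 ratio above 0, as did 52.1% of all detected genes, and for Mir19a and Mir19b-1 the difference did not pass the test. The summed counts were 1.12-fold higher in replicate 2, with 23802 CPM in replicate 2 and 21271 CPM in replicate 1, a log2 ratio of 0.16 (counting interval 0.15 to 0.17). The log2 ratios of all 340 detected genes had a median of 0.02 and an SD of 0.376. Of these genes 95 (27.9%) had a higher log2 ratio than Mir17, 89 (26.2%) than Mir20a, 99 (29.1%) than Mir18 and 133 (39.1%) than Mir92-1. For Mir19a, with far fewer counts, 31 genes (9.12%) had a higher log2 ratio, and for Mir19b-1 12 genes (3.53%) did. Among the 40 genomic clusters, Mir17-92 was 12th by the log2 ratio of its sum. The Mir106a-363 cluster was 1st with 0.36 (counting interval 0.23 to 0.50), on 1163 counts in replicate 2 and 749 counts in replicate 1. That interval held the 0.33 of the cluster in 2nd place, led by Mir34c, so the 1st place is not resolved. The Mir106b-25 cluster had 0.23 (0.21 to 0.25).

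Each detected gene was tested with an exact two-sided binomial test given the library totals and Benjamini-Hochberg adjustment over all 340 genes. It sets the 2 libraries against counting noise and does not compare conditions. Of the 6 members 4 were past the adjusted threshold of 0.05, all higher in replicate 2, where 25.3% of all tested genes were called in that direction and 50.9% in either direction. The median log2 ratio of the 6 members was 0.18. With counts this deep, small differences pass: Mir92-1 passed at 0.09 on the log2 scale, with an adjusted p of 1.84e-05 by the exact binomial test.

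By the same exact test, Mir17 was higher by 0.17 on the log2 scale with an adjusted p of 2.97e-90. Mir20a was higher by 0.19 with an adjusted p of 8.96e-38 (exact test), and Mir18 by 0.16 with an adjusted p of 1.73e-17. The members with few counts had the larger ratios and the wider intervals. Mir19a stood at 0.35 (counting interval 0.02 to 0.69) with an adjusted p of 0.0714 by the exact test, and Mir19b-1 at 0.55 (-0.12 to 1.25) with an adjusted p of 0.163. Neither was called at its depth, and the interval of Mir19b-1 held ratios of both signs.

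The composition of the cluster was almost the same in the pools. Mir17 made up 59.6% of its counts in replicate 2, with Wilson limits of 59.4 and 59.9, and 59.5% in replicate 1 (59.2 to 59.8). Mir18 made up 12.0% in replicate 2 (11.9 to 12.2) and 12.1% in replicate 1 (11.9 to 12.3). For these 2 members the intervals overlapped. Mir92-1 took 9.94% in replicate 2 (9.77 to 10.1) and 10.5% in replicate 1 (10.3 to 10.7), and its intervals did not overlap.

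Of the 13 genes outside the cluster that carry its seeds, 10 were detected and 9 of these had a log2 ratio above 0, as did 52.1% of all tested genes. Past the threshold 5 were higher, namely Mir106b, Mir93, Mir25, Mir92-2 and Mir32, and 1 was lower, Mir92b, with 89.7 CPM in replicate 2 and 114 CPM in replicate 1 (-0.35 on the log2 scale, with an adjusted p of 0.000453 by the exact test). The 4 others, Mir106a, Mir20b, Mir18b and Mir363, were not called. Of all tested genes 25.3% were called higher and 25.6% lower. Mir19b-2 was under the count minimum, and Mir367 and Mir6383 had 0 counts in both libraries.

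Marker sums also differed between the pools, some in the direction of the cluster and some in the other. The 2 muscle markers summed to 4829 CPM in replicate 2 and 11135 CPM in replicate 1, nearly all of it Mir206. The 2 epidermal markers summed to 94033 CPM in replicate 2 and 83441 CPM in replicate 1, and the 2 cartilage markers to 45564 CPM in replicate 2 and 47612 CPM in replicate 1. The 4 miRNAs of the Hox clusters summed to 57219 CPM in replicate 2 and 47420 CPM in replicate 1. Nearly all of this difference came from Mir196b, with 45632 CPM in replicate 2 and 35894 CPM in replicate 1. Mir10a was slightly higher in replicate 2 (3427 against 3250 CPM). Mir10b (8151 against 8267 CPM) and Mir196a-1 (8.74 against 9.15 CPM) were slightly lower. On the log2 scale these sums differed by -1.21 for muscle, 0.17 for epidermis, -0.06 for cartilage and 0.27 for the Hox clusters, and the endothelial Mir126a by 0.08. Among markers of other cells, the liver miRNA Mir122 stood at 86.2 CPM in replicate 2 and 57.5 CPM in replicate 1 (0.58 on the log2 scale). The difference was -0.04 for the 2 erythroid markers and 0.04 for the myeloid Mir223. For the 2 neuronal markers found by symbol it was -0.64, on 7 counts in replicate 2 and 9 counts in replicate 1. Their part in the difference of the cluster was not tested.

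Over only 2 samples, the pattern of a gene is its ratio between them. Of the 94 other genes with a mean of at least 1000 CPM, those with a log2 ratio nearest to the 0.16 of the cluster sum were Mir467d (0.16), Mir423 (0.16), Mir467e (0.15), Mir149 (0.14) and Mir27b (0.14). None of the 5 lies on chromosome 14.

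**Figure D4:**
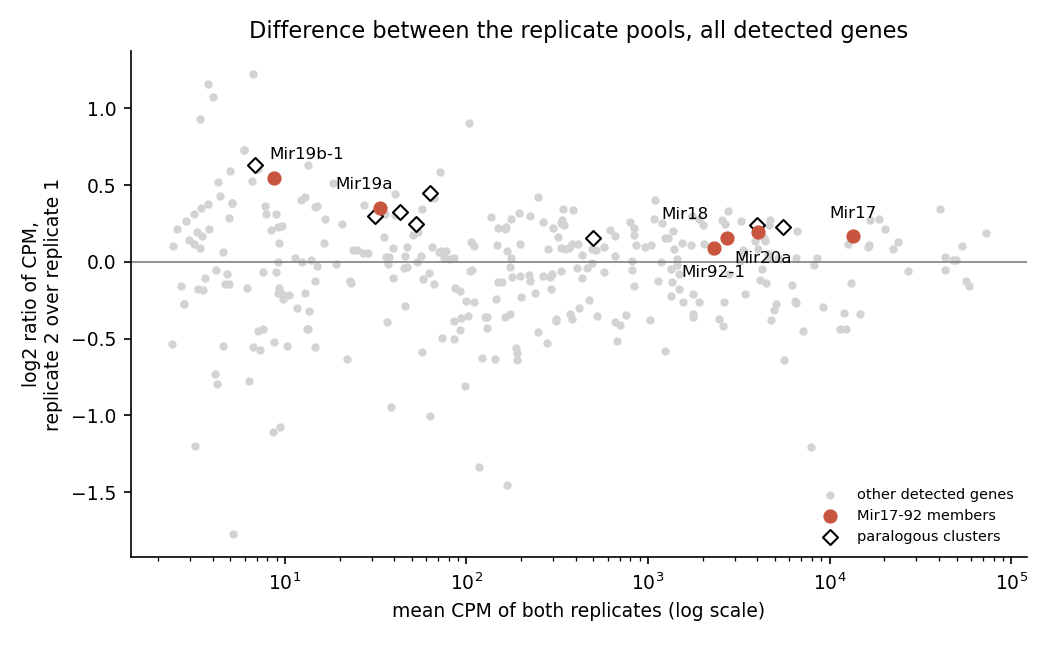
Log2 ratio of CPM, replicate 2 over replicate 1, against mean CPM (log scale) for the 340 detected genes, with Mir17-92 members as filled circles, detected genes of the paralogous clusters as diamonds and other genes in grey. All 6 members lie above 0, with 4 of them between 0.09 and 0.19, inside the spread of the other genes.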

How the data were processed

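Small RNA below 30 nt from limbs was sequenced, and the authors deposited tables of raw counts for each miRNA gene (mm10, annotation M4, per the deposited README). The aligner, counter and any trimming are not given in the sources used here. The tables have no header. From the values, the first count column is the sum of the other 2, taken as sense and antisense, and sense counts were used. The 4 summary lines, reads with several alignments among them, did not enter the sense totals. They are part of the totals of all reads. Names and positions come from GENCODE M21 on GRCm38 (1894 of 1973 identifiers matched).

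Sense counts were scaled to CPM and tested between the libraries with exact binomial tests (scipy 1.17.1, Python 3.11.15), adjusted over all genes with at least 10 counts in both replicates. No quasi-likelihood test between groups is possible with 1 group. edgeR 4.0.16 (TMM) and DESeq2 1.42.0 (size factors) in R 4.3.3 gave alternative scalings. The replicates are separate pools, and SDs are over n = 2. Intervals cover counting error only, since molecular identifiers are not named in the labels.

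The genes named are the members, their paralogs and seed relatives, the neighbours in level, the 5 genes nearest in ratio, and markers. Mir411, Mir322 and other genes were named as the neighbours or leaders of a ranking. The members and lists were chosen with earlier results of these data known.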

Additional observations from a re-analysis of the deposited data

How the results depend on the processing

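The counts of members past the threshold and the direction of every member held under TMM, DESeq2 size factors, no count minimum, at least 100 counts (where Mir19b-1 was not tested), counts irrespective of strand and an adjusted p of 0.01, with Mir17, Mir18, Mir20a and Mir92-1 called each time. The share of all tested genes called, 50.9% as reported, was 24.6% with no count minimum, 67.6% with at least 100 counts (4 of 5 members called) and 47.6% to 53.2% otherwise. Scaled to all reads of the library, Mir19a passed as well (adjusted p = 0.0406, exact binomial test, against 0.0547 to 0.0714 with the other scalings), the log2 ratio of the cluster sum was 0.19, and the cluster and its paralogs held 1.06% and 0.478% of the reads. With reads of several alignments in the denominator the cluster held 1.38%. Without Mir19b-1 and Mir92-1, the range of levels was 403-fold and Mir17 held 66.4% of the counts. The scalings tried moved the median log2 ratio of all detected genes to at most 0.05. Alone, replicate 2 gave a cluster share of 2.38% and a range of 1380-fold, and replicate 1 gave 2.13% and 1799-fold. The tests between replicates cannot be run without a replicate. No paired analysis was possible because there was 1 group. Depth limits Mir19a and Mir19b-1, and reads common to gene copies limit Mir19b-1 and Mir92-1.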
